A study of Mus musculus with 9 samples.

Results

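The 30 genes described here make cholesterol, sense it, export it, store it as esters, oxidise it or move it between and within cells. They were chosen by name from the pathway. A gene counted as measured when the array had a probe set that names it alone, and of several such probe sets the one with the highest mean was used. This held for 27 of the 30 genes, out of 19938 genes tested on the arrays: 17 of the 18 synthesis genes and 10 of the other 12. Acat2, a cytosolic thiolase at the start of the pathway, the liver X receptor Nr1h2 and Soat1, which esterifies cholesterol, had no probe set of their own and are not analysed here.

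Total RNA was measured on 9 Affymetrix mouse gene arrays, 1 per mouse brain sample, in 3 groups of 3 samples labelled as biological replicates. The first group was 5xFAD mice given human amylin, a hormone that pancreatic beta cells release with insulin, and the second was 5xFAD mice given phosphate-buffered saline (PBS), the vehicle. The third was wild-type mice, with the genotype given as B6SJLF1/J, that also received PBS. The labels give an age of about 5 months for every mouse and daily intraperitoneal injection over 10 weeks. As background, 5xFAD mice carry human transgenes with familial Alzheimer mutations under the neuronal Thy1 promoter and form amyloid plaques, so they model plaque deposition driven by overexpression in neurons. The tissue is labelled brain tissue, while the series description names the cortex. Values are log2 intensities, on which a step of 1 is a 2-fold difference, and differences are between group means with the standard error (SE) of the fit. A gene was called changed at a limma adjusted p under 0.05 over all 19938 genes.

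As background, the brain makes almost all of its own cholesterol, because lipoproteins of the blood do not cross the blood-brain barrier. Acetyl-CoA is carried through mevalonate to farnesyl pyrophosphate, then to squalene and lanosterol, and then through a series of demethylation, reduction and isomerisation steps to cholesterol. When sterols in the endoplasmic reticulum are low, SCAP brings the SREBP transcription factors to the Golgi for cleavage, and the synthesis genes are transcribed. When sterols are in excess, oxysterols activate the liver X receptors, which induce the exporters ABCA1 and ABCG1. Astrocytes supply neurons with cholesterol on APOE particles, oligodendrocytes use much of it for myelin, and neurons turn surplus into an oxysterol that leaves the brain.

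The promoters of Abca1, Hmgcs1 and Srebf1 hold sequence elements through which this control is described. That of Ch25h holds an element of another kind, a cAMP response element. These 4 are shown because the exporter and oxysterol genes that rose are among them. RefSeq sequence of the GRCm38.p6 assembly gave windows from 250 bases before to 50 bases after the start for 24 of the 30 genes, 30 windows in all, since a gene can have several starts. Fdps, Fdft1, Sqle, Abcg1, Lpl and Stard4 had no window and were not searched. For the other genes, both strands were searched. The sterol regulatory element TCACNCCAC was in 1.24% of 32851 windows of that length and in 1 of the 24 genes, Hmgcs1. The liver X receptor direct repeat GGTTANNNNNGGTCA was in 0.05% of windows and in 2 of the 24, Abca1 and Srebf1. The cAMP response element TGACGTCA was in 1.79% of windows and in 1 of the 24, Ch25h. The last 2 patterns were picked after the windows had been read, so their matches in these genes were known beforehand. Their shares of all windows are given as background and test nothing. The 250 bases before the start follow, 5′ to 3′ along the gene's strand, with the element in capitals. They are chr4:53159896-53160145 (minus strand) for Abca1, chr19:34475149-34475398 (minus) for Ch25h, chr13:119690101-119690350 (plus) for Hmgcs1 and chr11:60210472-60210721 (minus) for Srebf1. Abca1 and Srebf1 match on the strand opposite to the gene, and of the 3 windows of Srebf1 the one with the match is shown.
Abca1: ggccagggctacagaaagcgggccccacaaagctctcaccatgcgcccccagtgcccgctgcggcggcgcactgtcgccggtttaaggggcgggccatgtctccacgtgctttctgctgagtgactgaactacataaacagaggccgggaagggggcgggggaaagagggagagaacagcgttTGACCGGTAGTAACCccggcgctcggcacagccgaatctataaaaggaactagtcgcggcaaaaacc
Ch25h: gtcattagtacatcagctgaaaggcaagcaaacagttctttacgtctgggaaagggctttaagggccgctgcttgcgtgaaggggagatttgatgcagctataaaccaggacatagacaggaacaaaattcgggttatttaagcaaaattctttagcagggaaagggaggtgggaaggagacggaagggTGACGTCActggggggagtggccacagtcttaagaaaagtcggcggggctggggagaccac
Hmgcs1: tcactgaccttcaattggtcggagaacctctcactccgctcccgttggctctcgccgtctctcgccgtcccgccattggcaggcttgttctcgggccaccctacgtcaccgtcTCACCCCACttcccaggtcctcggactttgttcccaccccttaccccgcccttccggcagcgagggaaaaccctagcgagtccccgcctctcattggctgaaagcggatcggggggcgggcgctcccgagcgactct
Srebf1: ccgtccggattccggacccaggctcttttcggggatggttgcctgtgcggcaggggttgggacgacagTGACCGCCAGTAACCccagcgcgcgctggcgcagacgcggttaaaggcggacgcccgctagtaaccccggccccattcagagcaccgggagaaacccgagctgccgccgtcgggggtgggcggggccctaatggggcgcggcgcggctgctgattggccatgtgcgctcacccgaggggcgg
The element lies from 67 to 53 bases before the start in Abca1, from 61 to 54 in Ch25h, from 137 to 129 in Hmgcs1 and from 182 to 168 in Srebf1. The NF-Y box CCAAT and the Sp1 box GGGCGG bind factors that act with SREBPs. CCAAT was in 14 of 18 windows of 15 synthesis genes and in 6 of 12 windows of 9 other members, beside 37.41% of all windows. GGGCGG was in 15 of 18 and 7 of 12 windows, beside 35.66% of all windows. A match is a stretch of letters and not a measured binding site.

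The 9 arrays had median log2 values from 5.71 to 5.79, and the median SE of a difference was 0.07, so 3 arrays a group set the precision. The groups also differed in brain region and cell type markers. Against wild type, all 6 measured striatal markers rose in 5xFAD PBS samples (Rgs9 by 2.31), 4 of 5 markers of the hippocampus fell, and so did 5 of 5 of the thalamus (Prkcd by 1.78), and the same counts held in 5xFAD amylin samples. Whether these regional differences play a part in the sterol gene values was not tested. Of 11 microglial markers 10 rose in 5xFAD PBS samples and 9 in 5xFAD amylin samples. Over all 11, called or not, the 5xFAD PBS differences from wild type ran from 0.45 for Tmem119 to 4.92 for Cst7. Beside these marker counts, 3.66% of all genes were called higher and 4.92% lower in 5xFAD PBS samples, and 2.35% and 2.86% in 5xFAD amylin samples. Between the 5xFAD groups 0 markers of any list passed. In whole tissue, a change in the number of cells of a type cannot be told apart from a change in RNA per cell. Amylin replicate 1 stood apart in the synthesis genes, as described below, and differences that it moves are given with and without it. Xist was between 9.85 and 10.41 on all 9 arrays, so the X-linked genes Ebp and Nsdhl are compared between samples of one sex.

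**Figure D1:**
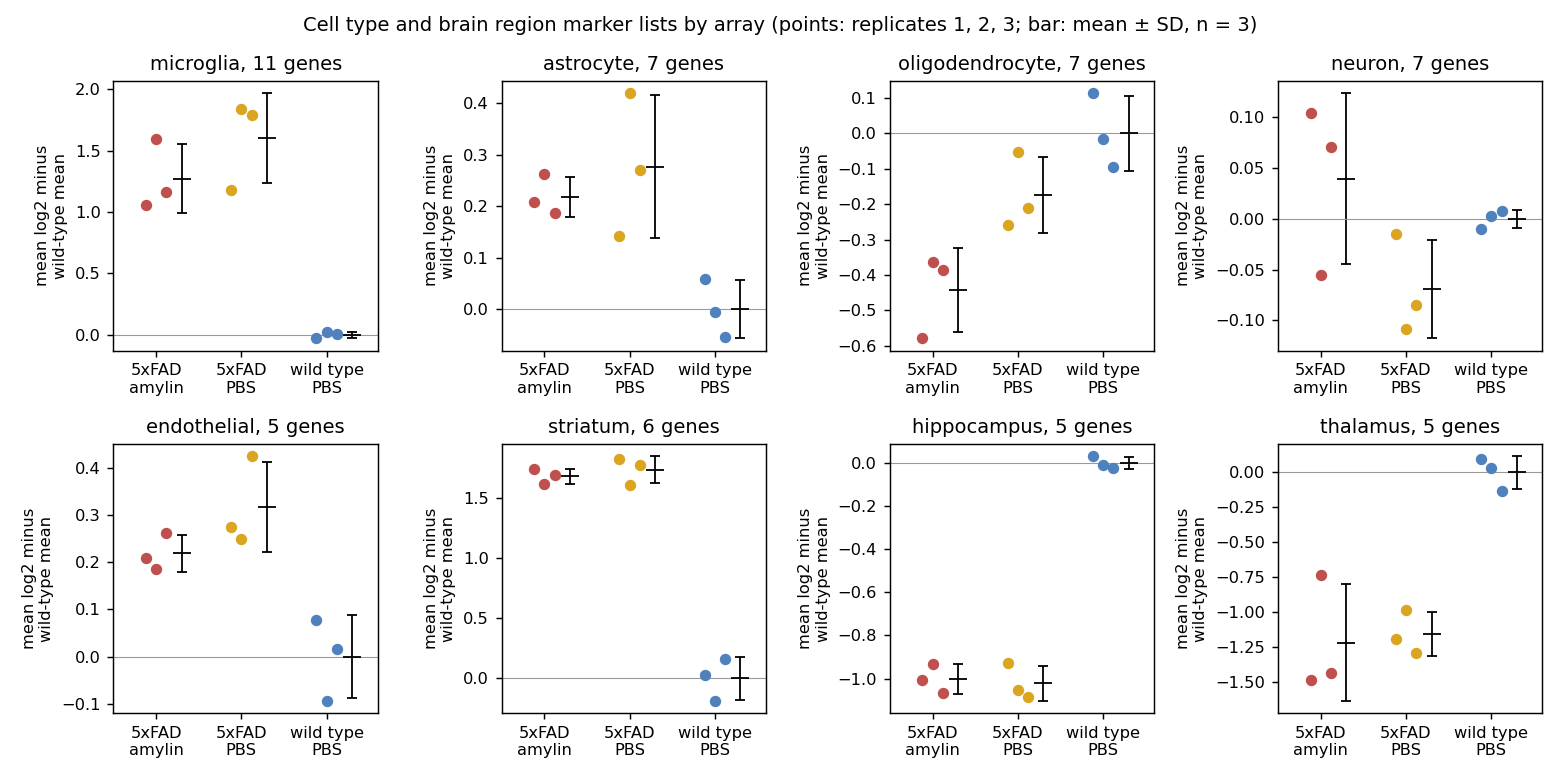
Mean log2 intensity of each marker list minus the wild-type mean (vertical axis) on each array, for 5xFAD amylin, 5xFAD PBS and wild-type samples; points are replicates 1 to 3 from left to right and bars the mean ± SD (n = 3). The 3 PBS arrays of 5xFAD mice were 1.18, 1.84 and 1.79 above wild type for the microglial list, and striatal markers were higher, and hippocampal and thalamic markers lower, in both 5xFAD groups.

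The first comparison asks how the sterol genes of 5xFAD mice on vehicle differed from wild type. Of 27 genes 3 rose and 0 fell, beside 8.58% of all genes called (3.66% higher and 4.92% lower). The 3 were Ch25h, which makes an oxysterol and is inducible in macrophages, the exporter Abca1 and the mevalonate enzyme Fdps. The median log2 difference of the 27 was 0.07, against -0.01 for all genes tested, with 18 differences above 0 and 9 below. The groups did not overlap for 15 of 27 genes, 11 higher and 4 lower in 5xFAD PBS samples, beside 26.8% of all genes (11.2% higher and 15.6% lower). At an unadjusted p under 0.05 there were 9 of 27, beside 21.2% of all genes.

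The second comparison asks what amylin did in 5xFAD mice. Of 27 genes 0 passed by limma, beside 0.00502% of all genes, which is 1 gene of 19938: Fkbp5, a glucocorticoid-induced chaperone outside the pathway, named here because it is the single call. At an unadjusted p under 0.05 there were 2 of 27, Mvk and Lpl, beside 6.9% of all genes. The median difference was -0.08 against 0.00 for all genes, with 21 of 27 below 0, and without amylin replicate 1 it was -0.01 with 18 of 27 below 0. Groups did not overlap for 3 genes, Mvk, Mvd and Lpl, all lower in amylin samples, beside 9.3% of all genes (5.49% higher and 3.81% lower). Without amylin replicate 1 the median of the 17 synthesis genes was -0.01, against -0.11 with all arrays.

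The third comparison sets 5xFAD mice on amylin against wild type. Of 27 genes 1 rose (Abca1) and 1 fell (Mvd, the last decarboxylation before the isoprenoid units), beside 5.21% of all genes called (2.35% higher and 2.86% lower). The median difference was 0.01 against -0.01 for all genes, and 0.07 without amylin replicate 1. Groups did not overlap for 6 of 27 genes, beside 23.1% of all genes (10.8% higher and 12.3% lower), and 7 had an unadjusted p under 0.05, beside 19.2%. The 3 comparisons share arrays in pairs, so their values are given side by side for each gene and were not set against each other.

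**Figure D2:**
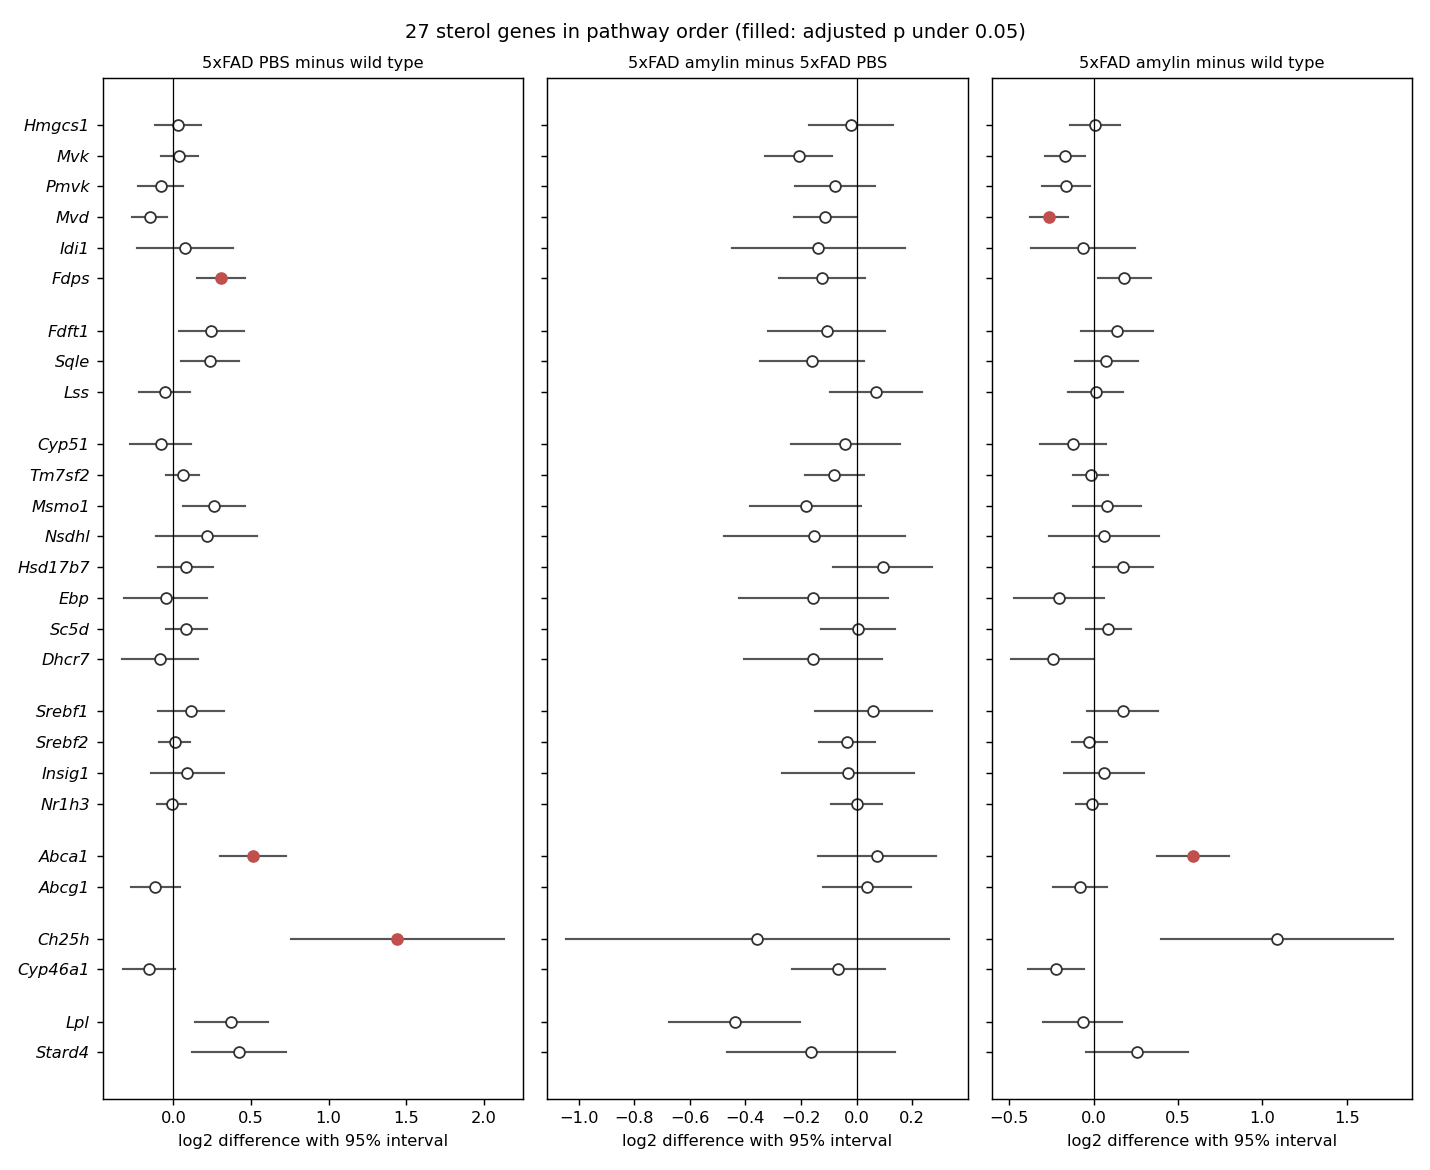
Log2 difference with its unadjusted 95% interval from the limma fit (horizontal axis) for the 27 measured genes in pathway order (vertical axis), in the 3 comparisons; filled points have an adjusted p under 0.05. Ch25h, Abca1 and Fdps are filled for 5xFAD PBS minus wild type, no gene for 5xFAD amylin minus 5xFAD PBS, and Abca1 and Mvd for 5xFAD amylin minus wild type.

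In the mevalonate arm, 1 of 6 measured genes rose in 5xFAD PBS mice and 0 fell (median 0.03), beside 3.66% of all genes called higher and 4.92% lower. In amylin mice 0 rose and 1, Mvd, fell against wild type, beside 2.35% higher and 2.86% lower. The gene that rose was Fdps, which joins isoprenoid units into farnesyl pyrophosphate, the branch point to sterols and protein prenylation. Fdps read 7.38, 7.54 and 7.61 in amylin samples, 7.58, 7.60 and 7.73 in 5xFAD PBS samples, and 7.35, 7.35 and 7.27 in wild type. Every 5xFAD array was above every wild-type array, and the lowest 5xFAD array was amylin replicate 1. Fdps was 0.31 ± 0.07 (SE) higher in 5xFAD PBS samples than in wild type, or 1.24-fold (adjusted p = 0.0245). Amylin minus 5xFAD PBS was -0.13 ± 0.07 (adjusted p = 0.770) and amylin minus wild type 0.18 ± 0.07 (adjusted p = 0.184), and without amylin replicate 1 they were -0.06 and 0.25. The call was lost without any 1 of the wild-type arrays or without 5xFAD PBS replicate 2 or 3, with adjusted p from 0.0519 to 0.0940.

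Mvd, which makes isopentenyl pyrophosphate, went the other way. It read 6.74, 6.75 and 6.74 in amylin samples, 6.78, 6.91 and 6.88 in 5xFAD PBS samples, and 7.05, 6.98 and 6.99 in wild type. The 3 groups did not overlap, with wild type on top and amylin lowest. Amylin samples were lower than wild type by -0.26 ± 0.05 log2, 0.832-fold (adjusted p = 0.0165). The difference of 5xFAD PBS from wild type was -0.15 ± 0.05 (adjusted p = 0.104) and of amylin from 5xFAD PBS -0.11 ± 0.05 (adjusted p = 0.721). Leaving out wild-type replicate 1, wild-type replicate 3 or amylin replicate 3 ended the call, with adjusted p of 0.0774, 0.0510 and 0.0527, while without amylin replicate 1 the gene was still called.

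Mvk, the mevalonate kinase, had 6.78, 6.78 and 6.82 in amylin samples, 6.92, 7.07 and 7.01 in 5xFAD PBS samples, and 7.02, 6.92 and 6.95 in wild type. All 3 amylin arrays were below the other 6 arrays. The difference of amylin from 5xFAD PBS was -0.21 ± 0.05 (unadjusted p = 0.00309, adjusted p = 0.574) and did not pass, and it was -0.20 without amylin replicate 1. Against wild type, amylin samples differed by -0.17 ± 0.05 (adjusted p = 0.107) and 5xFAD PBS samples by 0.04 ± 0.05 (adjusted p = 0.785).

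The rest of the arm did not pass in any comparison. Hmgcs1, the synthase that commits acetyl-CoA to the pathway and whose promoter carries the sterol regulatory element shown above, had 10.25, 10.44 and 10.47 in amylin samples, 10.35, 10.47 and 10.40 in 5xFAD PBS samples, and 10.34, 10.36 and 10.43 in wild type. The groups overlapped, and the 5xFAD PBS difference from wild type was 0.03 with an unadjusted 95% interval from -0.12 to 0.18. Pmvk, the next kinase after Mvk, differed by -0.16 ± 0.06 between amylin and wild-type samples (adjusted p = 0.198), and by -0.10 without amylin replicate 1.

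Idi1, which isomerises isopentenyl pyrophosphate, had 7.39, 8.01 and 8.00 in amylin samples, 7.96, 7.91 and 7.94 in 5xFAD PBS samples, and 7.89, 7.85 and 7.85 in wild type. Amylin replicate 1 was the lowest array, and the other 2 amylin arrays were the highest. The difference of amylin from 5xFAD PBS was -0.14 with all arrays and 0.07 without that array. Idi1 has a further probe set, whose differences were 0.10 for 5xFAD PBS minus wild type and -0.12 for amylin minus 5xFAD PBS, against 0.07 and -0.14 in the one used.

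Of the 3 enzymes from farnesyl pyrophosphate to lanosterol, 0 rose and 0 fell in any comparison, with a median of 0.24 for 5xFAD PBS minus wild type. Fdft1, the squalene synthase, had 10.04, 10.42 and 10.32 in amylin samples, 10.34, 10.45 and 10.30 in 5xFAD PBS samples, and 10.21, 10.07 and 10.08 in wild type. The 5xFAD PBS arrays lay above the wild-type arrays, while the amylin arrays spanned both. The difference of 5xFAD PBS from wild type was 0.25 ± 0.09 (adjusted p = 0.164), and it was 0.23 in a further probe set of the gene. Without amylin replicate 1, which enters through the shared estimate of spread, its adjusted p was 0.0437.

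Sqle, the squalene epoxidase and a rate-limiting step, had 8.28, 8.53 and 8.45 in amylin samples, 8.46, 8.58 and 8.70 in 5xFAD PBS samples, and 8.45, 8.27 and 8.32 in wild type. The 5xFAD PBS arrays again lay above wild type, by 0.24 ± 0.08 in the mean (adjusted p = 0.132), and the amylin arrays overlapped both. Lss, which closes the ring to lanosterol, differed by -0.06 ± 0.07 (adjusted p = 0.755) between 5xFAD PBS and wild type.

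Of the 8 enzymes from lanosterol to cholesterol, 0 rose and 0 fell in any comparison (median 0.07 for 5xFAD PBS minus wild type, -0.12 for amylin minus 5xFAD PBS and 0.02 for amylin minus wild type, the last 2 being -0.0025 and 0.06 without amylin replicate 1). Msmo1, which removes methyl groups from the ring, had 9.81, 10.13 and 10.05 in amylin samples, 10.10, 10.32 and 10.13 in 5xFAD PBS samples, and 9.86, 9.96 and 9.94 in wild type. Its 5xFAD PBS arrays lay above its wild-type arrays, with a difference of 0.26 ± 0.09 (adjusted p = 0.116) that passed without amylin replicate 1 (adjusted p = 0.0483). Nsdhl, the X-linked dehydrogenase that acts with Msmo1, had 8.46, 8.81 and 8.85 in amylin samples, 8.90, 9.14 and 8.55 in 5xFAD PBS samples, and 8.70, 8.57 and 8.67 in wild type. Its groups overlapped, and the 5xFAD PBS arrays alone spanned more than the difference of 0.21 ± 0.15 from wild type (adjusted p = 0.474).

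Dhcr7, the terminal reductase of one branch, had 7.69, 8.21 and 8.05 in amylin samples, 8.15, 8.15 and 8.12 in 5xFAD PBS samples, and 8.27, 8.15 and 8.26 in wild type. The low mean of the amylin group came from replicate 1. The difference from 5xFAD PBS was -0.16 with all arrays and -0.01 without it. Ebp, the sterol isomerase, had 6.77, 7.24 and 7.26 in amylin samples, 7.26, 7.24 and 7.24 in 5xFAD PBS samples, and 7.43, 7.23 and 7.24 in wild type, and its difference of amylin from 5xFAD PBS was -0.16 with all arrays and 0.01 without that array. Cyp51, the lanosterol demethylase, had 8.04, 8.34 and 8.42 in amylin samples, 8.33, 8.28 and 8.31 in 5xFAD PBS samples, and 8.40, 8.44 and 8.33 in wild type, and the same difference was -0.04 with and 0.07 without that array. The sterol reductase Tm7sf2, the ketoreductase Hsd17b7 and the desaturase Sc5d differed by at most 0.09 in size between the 5xFAD groups and between 5xFAD PBS mice and wild type. Amylin samples differed from wild type by -0.02 in Tm7sf2, 0.17 ± 0.08 in Hsd17b7 (adjusted p = 0.283) and 0.09 in Sc5d. Without amylin replicate 1 these were 0.01, 0.17 and 0.12.

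Seen over the 17 synthesis genes, amylin replicate 1 lay apart from the other 2 amylin arrays. The mean of the 17 minus the wild-type mean was -0.18, 0.07 and 0.03 on the 3 amylin arrays, 0.05, 0.10 and 0.05 on the 5xFAD PBS arrays, and 0.03, -0.02 and -0.02 on the wild-type arrays. Amylin replicate 1 was the lowest of all 9 arrays for 12 of the 17 genes, and for 11% of all genes tested. It was the highest for 0 of the 17 and for 20.4% of all genes, the largest share of any array. For Mvk and Mvd, which are among the 12, another amylin array read nearly the same. The other 2 amylin arrays were lowest for 0 of the 17. In the comparison of amylin with 5xFAD PBS 14 of 17 differences were below 0 with all arrays, and 9 of 17 without replicate 1. That array was picked from the values of these same genes, so the shift is no separate evidence. Mvk and Mvd were lower on all 3 amylin arrays than on any 5xFAD PBS array. Amylin replicate 1 was also the lowest array for the mean of 7 oligodendrocyte markers, cells that make cholesterol for myelin: -0.58, -0.36 and -0.39 relative to wild type for amylin replicates 1 to 3, and -0.26, -0.05 and -0.21 for 5xFAD PBS replicates 1 to 3. Of these markers 5 of 7 fell in amylin mice against wild type (Opalin by 0.69, Mbp by 0.27), beside 2.86% of all genes. In 5xFAD PBS mice 1 of 7, Mobp, fell, beside 4.92%. Wholly below wild type lay 7 of 7 in amylin samples, beside 12.3% of all genes, and 4 of 7 in 5xFAD PBS samples, beside 15.6%. Between the 5xFAD groups 0 of 7 passed, and 3 of 7 lay wholly lower in amylin samples, beside 3.81%. The part of the oligodendrocyte markers in the synthesis values was not tested.

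**Figure D3:**
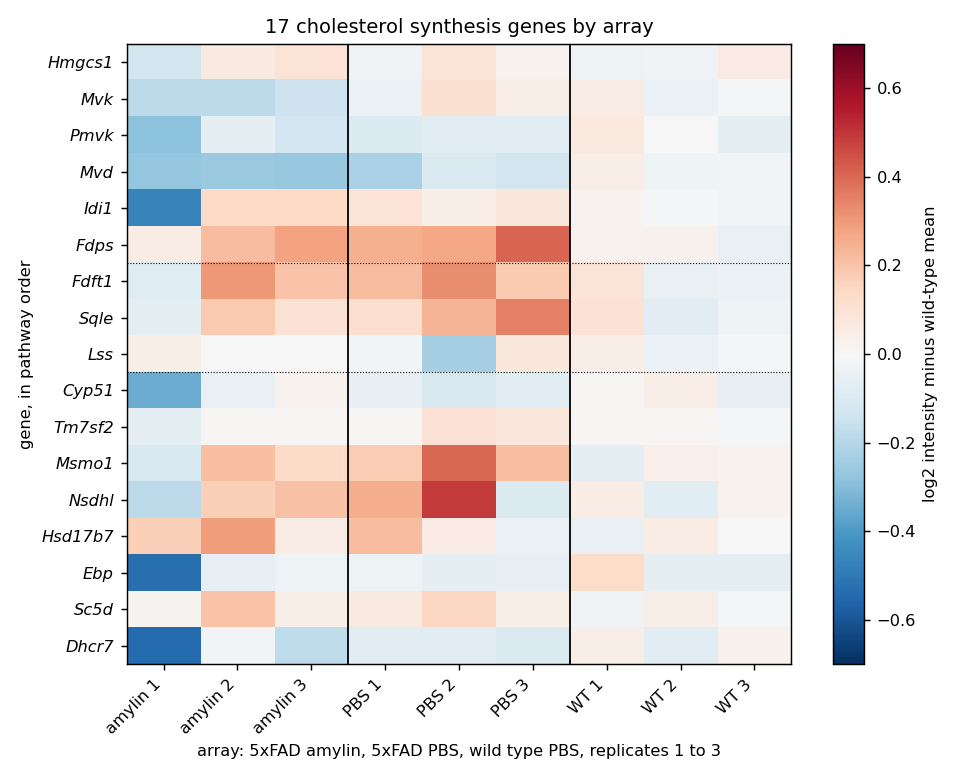
Log2 intensity minus the wild-type mean (colour, red above and blue below) for the 17 synthesis genes in pathway order (rows) on the 9 arrays (columns: 5xFAD amylin, 5xFAD PBS and wild-type replicates 1 to 3). The column of amylin replicate 1 is the lowest of all arrays for 12 of 17 genes, with Idi1 at 7.39 against a wild-type mean of 7.86 and 8.01 and 8.00 on the other 2 amylin arrays.

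Of the 4 measured members for sterol sensing and liver X receptors, 0 rose and 0 fell in any comparison. The escort Scap, which was not a member, fell in both 5xFAD groups and is described below. Srebf2, the factor that drives most synthesis genes, had 9.14, 9.21 and 9.14 in amylin samples, 9.17, 9.18 and 9.24 in 5xFAD PBS samples, and 9.20, 9.18 and 9.18 in wild type. All 9 arrays lay close together, and the difference of 5xFAD PBS from wild type was 0.01 with an unadjusted 95% interval from -0.09 to 0.11. These arrays measure RNA and not the cleavage that activates the protein. A probe set that names Srebf2 together with 3 other genes was not used.

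Srebf1, whose product leans towards fatty acid genes and whose promoter window holds the liver X receptor repeat shown above, had 7.51, 7.27 and 7.14 in amylin samples, 7.24, 7.26 and 7.25 in 5xFAD PBS samples, and 7.22, 7.20 and 6.99 in wild type. Amylin replicate 1, the lowest array for many synthesis genes, was the highest for Srebf1. The differences were 0.11 ± 0.09 for 5xFAD PBS minus wild type (adjusted p = 0.583) and 0.06 ± 0.09 for amylin minus 5xFAD PBS (adjusted p = 0.914), which was -0.04 without amylin replicate 1. Insig1, which holds SCAP in the endoplasmic reticulum, differed by 0.09 ± 0.11 between 5xFAD PBS and wild type (adjusted p = 0.728). Nr1h3, the liver X receptor alpha, ranged from 5.91 to 5.93 in amylin samples, 5.91 to 5.93 in 5xFAD PBS samples and 5.92 to 5.96 in wild type.

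Of the 2 exporters, Abca1 rose in both 5xFAD groups and Abcg1 did not pass. Abca1 loads cholesterol and phospholipid onto lipid-poor APOE and is a standard target of the liver X receptors. It read 8.37, 8.03 and 8.22 in amylin samples, 8.19, 7.99 and 8.23 in 5xFAD PBS samples, and 7.59, 7.72 and 7.55 in wild type. The 5xFAD groups overlapped each other and lay wholly above wild type. The difference of 5xFAD PBS from wild type was 0.52 ± 0.09, or 1.43-fold (adjusted p = 0.0101), and that of amylin from wild type 0.59 ± 0.09, or 1.5-fold (adjusted p = 0.00832). Amylin and 5xFAD PBS differed by 0.07 ± 0.09 with an unadjusted 95% interval from -0.14 to 0.29 (adjusted p = 0.893), and by -0.01 without amylin replicate 1. Abca1 passed against wild type under all 18 alternative settings in both comparisons, with adjusted p from 0.00259 to 0.0481 for 5xFAD PBS and from 0.00418 to 0.0430 for amylin.

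Abcg1, which passes cholesterol to particles that already hold lipid and is also induced by liver X receptors, had 8.78, 8.63 and 8.62 in amylin samples, 8.61, 8.62 and 8.69 in 5xFAD PBS samples, and 8.90, 8.69 and 8.69 in wild type. The groups overlapped, and the difference of 5xFAD PBS from wild type was -0.12 ± 0.07 (adjusted p = 0.402). Esterification had no measured member, since Soat1 was its one gene.

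The 2 oxysterol genes differed in direction. Ch25h, the cholesterol hydroxylase of activated macrophages, had 6.47, 6.10 and 5.82 in amylin samples, 5.87, 7.31 and 6.28 in 5xFAD PBS samples, and 5.05, 4.99 and 5.08 in wild type. The wild-type arrays lay within a narrow band, the 6 arrays of 5xFAD mice lay above it, and 5xFAD PBS replicate 2 was far above the other 2 of its group. The difference of 5xFAD PBS from wild type was 1.45 ± 0.31 (adjusted p = 0.0190). Amylin samples were above wild type by 1.09 ± 0.31, or 0.92 without amylin replicate 1, and did not pass (adjusted p = 0.0784). The wild-type values lie below the array medians of 5.71 to 5.79, and no detection call was used here, so it is not known whether they are above background, and no fold is given.

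Amylin and 5xFAD PBS differed in Ch25h by -0.36 ± 0.31 (adjusted p = 0.838), without 5xFAD PBS replicate 2 by 0.05 and without amylin replicate 1 by -0.53, so the sign of that difference rests on 5xFAD PBS replicate 2. The call against wild type was lost in the fit of only those 2 groups (adjusted p = 0.0519) and without any 1 wild-type array (0.0620 to 0.0730). The 11 microglial markers averaged 1.06, 1.59 and 1.16 above wild type on amylin replicates 1 to 3 and 1.18, 1.84 and 1.79 on 5xFAD PBS replicates 1 to 3. Within the 5xFAD PBS group, replicate 2 was highest and replicate 1 lowest for both Ch25h and these markers, while within the amylin group the order differed. Their part in the rise of Ch25h and Abca1 was not tested.

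Cyp46a1, the neuronal hydroxylase that makes the brain's exported oxysterol, had 8.91, 9.17 and 9.03 in amylin samples, 9.13, 9.04 and 9.13 in 5xFAD PBS samples, and 9.25, 9.17 and 9.36 in wild type. Every 5xFAD array lay below the wild-type arrays. The differences were -0.16 ± 0.07 for 5xFAD PBS minus wild type (adjusted p = 0.268), -0.07 ± 0.07 for amylin minus 5xFAD PBS (adjusted p = 0.877) and -0.23 ± 0.07 for amylin minus wild type (adjusted p = 0.129). Without amylin replicate 1 the last 2 were -0.0048 and -0.16. Of 7 neuron markers 2 fell in 5xFAD PBS mice (Snap25 by 0.28) and 0 in amylin mice, beside 4.92% and 2.86% of all genes called lower.

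Lpl, a lipase of lipoproteins that microglia express around plaques, and Stard4, which shuttles cholesterol to the endoplasmic reticulum, were both higher in 5xFAD PBS mice without passing. Lpl had 7.36, 7.52 and 7.20 in amylin samples, 7.58, 7.86 and 7.95 in 5xFAD PBS samples, and 7.42, 7.38 and 7.49 in wild type. The 5xFAD PBS arrays lay above all the others, and amylin and wild-type arrays overlapped. For Lpl, 5xFAD PBS minus wild type came to 0.37 ± 0.11, or 1.29-fold (adjusted p = 0.0614), and amylin minus 5xFAD PBS to -0.44 ± 0.11, or 0.738-fold (unadjusted p = 0.00212, adjusted p = 0.569). Amylin differed from wild type by -0.07 ± 0.11 (adjusted p = 0.797). The first of these passed under 5 of 18 alternative settings, and the second under 0.

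Stard4 had 7.06, 7.42 and 7.63 in amylin samples, 7.35, 7.68 and 7.57 in 5xFAD PBS samples, and 7.19, 7.11 and 7.04 in wild type. The 5xFAD PBS arrays lay above wild type, and amylin replicate 1 lay within the wild-type range. For Stard4, 5xFAD PBS minus wild type came to 0.42 ± 0.13, or 1.34-fold (adjusted p = 0.0960), and it passed without amylin replicate 1 (adjusted p = 0.0296). Amylin and 5xFAD PBS differed by -0.16 ± 0.13 (adjusted p = 0.836), and by -0.0076 without amylin replicate 1.

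**Figure D4:**
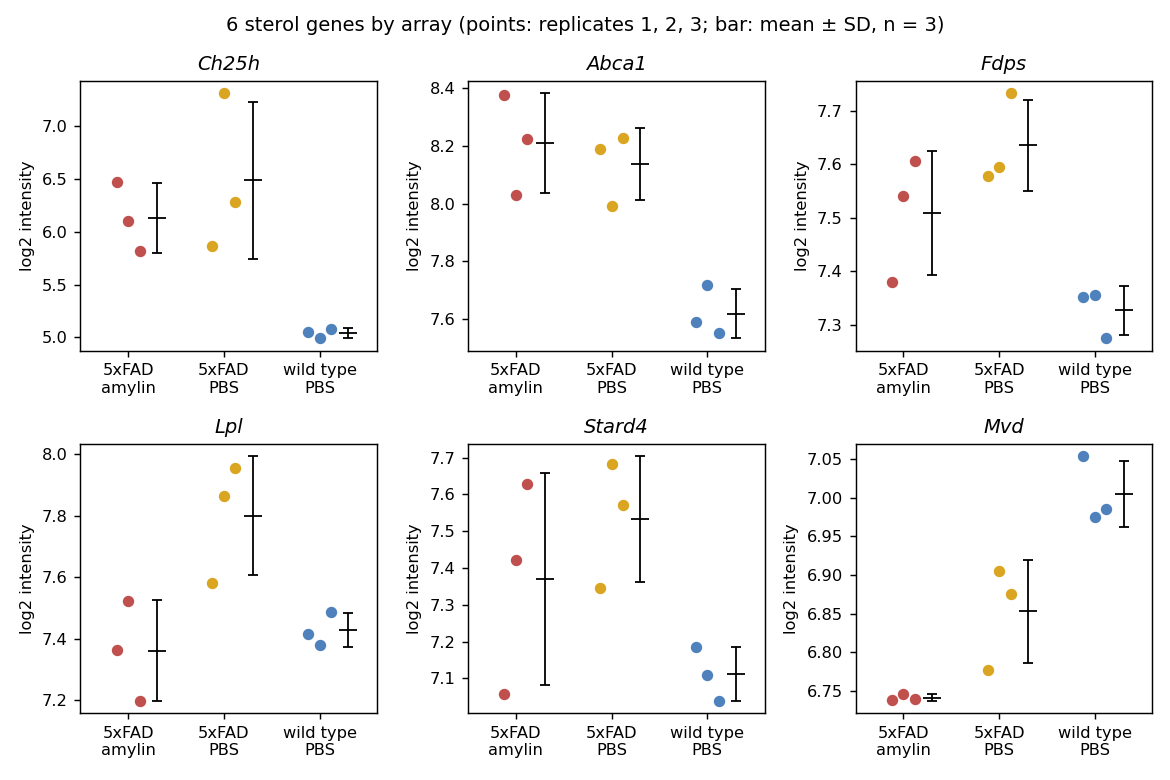
Log2 intensity (vertical axis) of Ch25h, Abca1, Fdps, Lpl, Stard4 and Mvd on each array, for 5xFAD amylin, 5xFAD PBS and wild-type samples; points are replicates 1 to 3 from left to right and bars the mean ± SD (n = 3). Abca1 averaged 8.21 ± 0.17, 8.14 ± 0.12 and 7.62 ± 0.09 in the 3 groups in that order, Ch25h has 1 high 5xFAD PBS array at 7.31, and the 3 5xFAD PBS arrays of Lpl lie above its other 6 arrays, with differences that did not pass.

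A further 51 genes of sterol and lipid handling were listed around the pathway, and 46 were measured. Of these 2 rose and 5 fell in 5xFAD PBS mice against wild type (median -0.06), beside 3.66% of all genes called higher and 4.92% lower. Between the 5xFAD groups 0 passed (median 0.02), and 1 rose and 5 fell in amylin mice against wild type (median -0.02), beside 2.35% of all genes higher and 2.86% lower. The 2 that rose store or release lipid. Plin2, the coat protein of lipid droplets, had 6.63, 6.79 and 6.74 in amylin samples, 6.82, 7.14 and 7.06 in 5xFAD PBS samples, and 6.42, 6.37 and 6.35 in wild type. The 3 groups did not overlap, with amylin between the other 2. Plin2 differed from wild type by 0.63 ± 0.08 in 5xFAD PBS mice (adjusted p = 0.00183) and by 0.34 ± 0.08 in amylin mice (adjusted p = 0.0441), and amylin differed from 5xFAD PBS by -0.29 ± 0.08 (unadjusted p = 0.00612, adjusted p = 0.652). The call in amylin mice was lost without any 1 wild-type array, amylin replicate 2 or 3 or 5xFAD PBS replicate 3 (adjusted p from 0.0692 to 0.135). Npc2, which carries cholesterol out of the lysosome, had 8.03, 8.09 and 7.99 in amylin samples, 8.03, 8.50 and 8.29 in 5xFAD PBS samples, and 7.93, 7.79 and 7.61 in wild type. It rose by 0.50 ± 0.11 in 5xFAD PBS mice (adjusted p = 0.0269), while amylin mice differed from wild type by 0.26 ± 0.11 (adjusted p = 0.251). The call was lost in the fit of only the 2 groups (adjusted p = 0.0744) and without wild-type or 5xFAD PBS replicate 2 or 3 (0.0730 to 0.100).

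Genes that fell included the SREBP escort Scap, which had 8.73, 8.69 and 8.70 in amylin samples, 8.73, 8.63 and 8.64 in 5xFAD PBS samples, and 8.99, 8.89 and 8.93 in wild type. Both 5xFAD groups lay below wild type, by -0.27 ± 0.05 in 5xFAD PBS mice (adjusted p = 0.0106) and -0.23 ± 0.05 in amylin mice (adjusted p = 0.0303), where the call was lost without any 1 wild-type array or amylin replicate 2 or 3 (0.0590 to 0.123). Abcg4, a neural sterol transporter related to Abcg1, had 8.11, 8.06 and 7.97 in amylin samples, 7.98, 8.08 and 8.01 in 5xFAD PBS samples, and 8.43, 8.34 and 8.46 in wild type. It fell by 0.39 in 5xFAD PBS mice (adjusted p = 0.00345) and by 0.36 in amylin mice (adjusted p = 0.00699). Abca2, a transporter abundant in oligodendrocytes, fell by 0.38 in 5xFAD PBS mice (adjusted p = 0.00180) and by 0.29 in amylin mice (adjusted p = 0.0112, and 0.0535 without wild-type replicate 1). For both transporters and Scap, wild-type and 5xFAD arrays did not overlap.

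On the fatty acid side of the SREBP targets, 2 of 9 genes fell and 0 rose in 5xFAD PBS mice, beside 4.92% of all genes called lower and 3.66% higher. Differences were below 0 for 7 of the 9 (median -0.18) and for 10795 of the 19938 genes tested (median -0.01). The elongase Elovl6 fell by 0.39 (adjusted p = 0.0134), and by 0.38 in amylin mice (adjusted p = 0.0206). The first of these calls was lost without wild-type replicate 1 or 5xFAD PBS replicate 3 (0.0611 and 0.0576), and the second without wild-type replicate 1 or 2 or amylin replicate 2 (0.0576 to 0.0953). The desaturase Scd1 fell by 0.27 in 5xFAD PBS mice (adjusted p = 0.0354). That call was lost with quantile normalization repeated (0.0682), in the fit of only the 2 groups (0.0607) and without wild-type replicate 1 or 3 or 5xFAD PBS replicate 2 or 3 (0.0857 to 0.117). Acss2, which makes acetyl-CoA from acetate, fell by 0.43 in amylin mice (adjusted p = 0.0447) and was at -0.34 ± 0.10 in 5xFAD PBS mice (adjusted p = 0.0791). The call in amylin mice held in 11 of 18 alternative settings. It was lost with array weights, in the fit of only the 2 groups, and without wild-type replicate 1 or 2, amylin replicate 1 or 3 or 5xFAD PBS replicate 3 (adjusted p from 0.0675 to 0.174). Acaca and Acly, enzymes at the head of fatty acid synthesis, were at 0.21 ± 0.07 (adjusted p = 0.105) and 0.15 ± 0.05 (adjusted p = 0.0918) in 5xFAD PBS mice and did not pass.

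Apoe, the main lipid carrier of the brain, had 12.31, 12.36 and 12.33 in amylin samples, 12.29, 12.34 and 12.44 in 5xFAD PBS samples, and 12.25, 12.15 and 12.18 in wild type. The 5xFAD arrays lay above wild type, and the differences of 0.16 ± 0.05 in 5xFAD PBS mice (adjusted p = 0.103) and 0.14 ± 0.05 in amylin mice (adjusted p = 0.200) did not pass. Of the other enzymes of oxysterol and bile acid synthesis, 0 of 4 passed in any comparison, and the largest difference was that of Cyp7b1, which clears hydroxylated sterols, at -0.34 ± 0.09 between amylin and wild type (adjusted p = 0.0682), and -0.28 without amylin replicate 1. Of 6 other sterol carriers 0 passed.

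**Figure D5:**
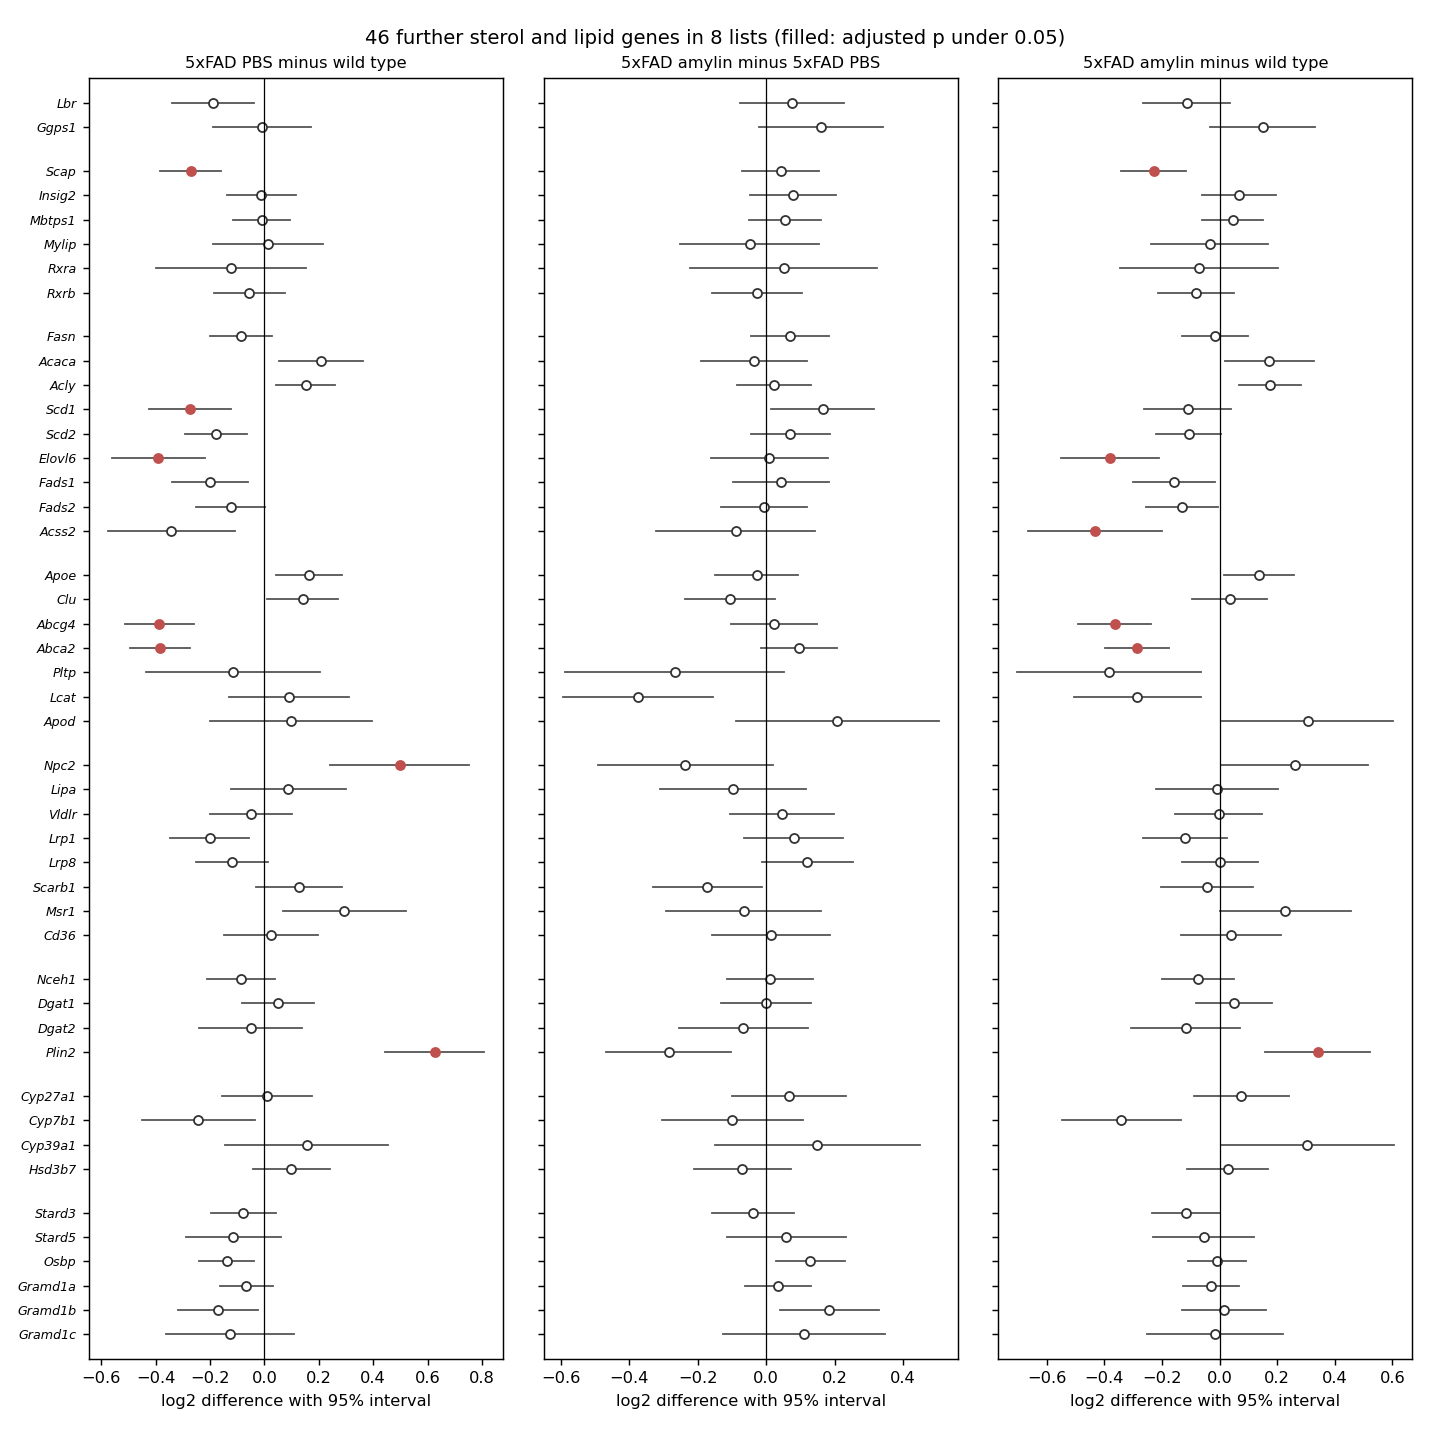
Log2 difference with its unadjusted 95% interval (horizontal axis) for the 46 further sterol and lipid genes, grouped by list (vertical axis), in the 3 comparisons; filled points have an adjusted p under 0.05. For 5xFAD PBS minus wild type Plin2 and Npc2 lie to the right of 0 and Scap, Scd1, Elovl6, Abcg4 and Abca2 to the left, and no point is filled for amylin minus 5xFAD PBS.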

How the data were processed

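RNA of 9 mouse brain samples was hybridised to 1 array each. The authors deposited log2 intensities of each array for 35556 probe sets. Their processing notes name RMA and the R package oligo, without versions. RMA forces the probe intensities of the arrays to the same quantiles before they are combined into probe set values, which hides differences in total signal. No source used here names the genome build of the array annotation.

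A single gene symbol was given for 21789 probe sets, several symbols for 1621 and no symbol for 12146. Among those with a single symbol, the Entrez IDs of 21698 were found among RefSeq genes of GRCm38.p6, and 0 symbols needed updating. For the 999 genes with more than 1 probe set, the brightest was kept. This gave 19938 genes, and no low signal was filtered out. Levels of different genes were not compared, since probe sets differ in brightness.

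Groups were compared by limma 3.58.1 under R 4.3.3, and files were read with data.table (version 1.17.8). A single fit took all 9 arrays and 3 contrasts, so that the 3 groups share an estimate of the spread (6 residual and 3.53 prior degrees of freedom). P-values were adjusted by Benjamini-Hochberg over the 19938 genes, with calls at an adjusted p under 0.05. All p-values in the text are from this fit or its alternatives. The fit was also run on simulated data with independent noise, as a check of the code. That run has no array that stands apart, so it cannot show how such an array moves the results. The labels call the replicates biological and give no batch, so no batch could be tested.

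All 30 genes could be named. Of the 51 other sterol genes, those called in a comparison and, per list, the 2 with the smallest p in a comparison were open to naming. So were the markers with the smallest and largest difference of their list, and Apoe, Cst7, Trem2, Mbp and Rgs9. Mobp, Xist, Fkbp5, Acaca, Acly and Pltp were added after their values were seen. The genes and lists were chosen with earlier results of these data known. Red blood cell markers had a single measured gene, Alas2, with 0 calls. Gfap of the 7 astrocyte markers and Slco1a4 of the 5 endothelial markers rose against wild type in both 5xFAD groups, and 0 others of those lists did.

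The settings varied were the normalization (a second quantile step, or centring on array medians), a filter on the lowest 25% or 50% of genes by mean, the variance prior (trended and robust), the samples in the fit (the 2 groups compared alone), array weights, a block for the replicate number, averaging a gene's probe sets, and dropping 1 array at a time. Promoter windows are from RefSeq, GRCm38.p6.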

Additional observations from a re-analysis of the deposited data

How the results depend on the processing

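Abca1 passed against wild type, in 5xFAD PBS and in amylin mice, under all 18 alternatives (9 other settings and 9 single arrays left out). No called difference of a member changed sign. Among the 27 genes, the 3 calls of 5xFAD PBS minus wild type became 6 with array weights, where Lpl, Sqle and Stard4 were added, and 4 with the replicate number as a block, where Msmo1 was added. Leaving out 1 array gave 1 to 6 calls. It gave 1, Abca1, without any 1 wild-type array, and 6 without amylin replicate 1, where Fdft1, Msmo1 and Stard4 were added and which acts here through the shared estimate of spread. The 2 calls of amylin minus wild type became 1 to 3 on leaving out 1 array, and 0 genes passed for amylin minus 5xFAD PBS under every alternative. Ch25h drops below the filter that leaves out the lowest 50% of genes by mean. It passed 5xFAD PBS minus wild type in 13 of the 17 alternatives that keep it, and amylin minus wild type in 4. Calls also moved over all genes. The 1710 of 5xFAD PBS minus wild type became 2301 with array weights and 863 to 1779 on leaving out 1 array, with 1779 without amylin replicate 1. The 1039 of amylin minus wild type became 1350 with array weights and 447 to 1086 on leaving out 1 array. The 1 call of amylin minus 5xFAD PBS became 0 in the fit of only these 2 groups and 0 with the replicate block, and 0 to 7 on leaving out 1 array. Replicate numbers were not taken to pair samples: deviations of same-numbered samples correlated from -0.056 to 0.183, and the block gave 1638, 0 and 1059 calls. Among member differences that did not pass, 4, 25 and 13 values changed sign over the alternatives of the 3 comparisons. The causes of these changes were not tested, beyond fewer arrays or another estimate of spread. With 3 arrays a group and a median SE of 0.07, small differences could not be told from 0.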

Other observations

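Some further genes of lipid handling had p-values under 0.05 before adjustment between the 5xFAD groups and did not pass after it. Lcat, which esterifies cholesterol on lipoproteins, had 8.12, 7.93 and 8.23 in amylin samples, 8.59, 8.52 and 8.29 in 5xFAD PBS samples, and 8.49, 8.31 and 8.32 in wild type. The amylin arrays lay below all others, by -0.38 ± 0.10 against 5xFAD PBS (unadjusted p = 0.00368, limma adjusted p = 0.621). Gramd1b, a sterol carrier at contacts of the endoplasmic reticulum with the plasma membrane, differed by 0.18 ± 0.06 (unadjusted p = 0.0184, adjusted p = 0.687), and Osbp, an oxysterol-binding carrier, by 0.13 ± 0.04 (unadjusted p = 0.0174, adjusted p = 0.683). Without amylin replicate 1 these were both 0.12. For both, 5xFAD PBS samples were the lowest group, at -0.17 ± 0.06 and -0.14 ± 0.04 against wild type. At an unadjusted p under 0.05 there were 6 of these 46 genes in that comparison, beside 6.9% of all genes. Pltp, a phospholipid transfer protein, had 8.47, 9.05 and 9.04 in amylin samples and 9.16, 9.05 and 9.16 in 5xFAD PBS samples. Wild type had 9.34, 9.08 and 9.30, and amylin replicate 1 was the lowest array. Pltp was picked after its values were seen, and that array was the lowest for 11% of all genes.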
